A study of Homo sapiens with 24 samples.

Results

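Cholesterol and fatty acid synthesis was followed through 28 genes: 18 enzymes of the sterol pathway, 5 genes of the SREBP system and sterol transport, and 5 enzymes of fatty acid synthesis. Rows of the probe-set table that carried exactly 1 gene symbol were taken, and a gene's level was the mean log2 value of its exon probe sets, so that a level or a difference is on the log2 scale throughout. All 28 members were measured, among 18613 genes with at least 3 such probe sets.

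The cells were 1 p53-null subline (HCT116p53-/-) and its parent HCT116, a line from a human colorectal carcinoma. Each line was exposed for 8 h to 30 µM isoginkgetin, a plant biflavonoid described as a splicing inhibitor, to its vehicle DMSO, or was mock-treated (called untreated here). Each of the 6 groups held 2 arrays, 1 from each of 2 independent experiments, which makes 12 arrays of the Affymetrix Human Transcriptome Array 2.0. The term set stands for the 3 arrays that share a line and a replicate number. The groups are thus isoginkgetin, DMSO and untreated in the p53-null line and the same in HCT116, and they share the medium, with newborn and fetal calf serum, which carries cholesterol from outside the cells. Arrays have no read depth, and their small number limits the precision of every value.

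The arrays labelled HCT116 replicate 1 did not carry the defining markers of an epithelial line. In DMSO, EPCAM stood at 4.61 there, against 12.30, 12.14 and 11.93 in p53-null replicates 1 and 2 and HCT116 replicate 2. KRT8 stood at 5.72, against 14.34, 14.44 and 13.92. The mesenchymal intermediate filament gene VIM stood at 12.52, against 3.52, 3.68 and 3.10. All 7 epithelial markers were lower in DMSO in that set than in HCT116 replicate 2, by a median difference of -7.32, and all 5 mesenchymal markers were higher, by a median of 3.94. After quantile scaling of the arrays these medians were -7.88 and 3.10, and 4 mesenchymal markers were above the other 3 sets. COL1A1 and COL1A2 were low even there, at 4.76 and 4.68 as deposited, against 3.97 and 3.68 in HCT116 replicate 2. These arrays are called by their label, and each result is given with all 4 sets and with the other 3 sets.

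Cholesterol is built from acetyl-CoA through mevalonate, isoprenoids and squalene, and lanosterol is then trimmed to cholesterol. The genes of this route share a control loop: the membrane-bound transcription factors SREBP-1 and SREBP-2, encoded by SREBF1 and SREBF2, travel with their escort SCAP from the endoplasmic reticulum to the Golgi, where they are cut and released. INSIG1, itself a target of SREBP, holds SCAP back when sterols are plentiful, and SREBP-1 drives the fatty acid enzymes as well.

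Promoter windows of 300 bases around annotated gene starts (RefSeq, GRCh38.p14) were found for 24 members, with 32 windows in all. FDFT1, SQLE, ACAT2 and FASN had no window, so the motif counts do not cover them. Windows are shown for INSIG1, IDI1 and MSMO1, which fell over the 3 sets, as did FDFT1. They are also shown for MVD and HMGCS1, which had the largest drops in HCT116 replicate 2. SREBF2 is shown because it holds the only copy of the sterol regulatory element in the members' windows. Capitals mark 4 motifs searched on both strands: the sterol regulatory element TCACNCCAC, the SREBP E-box TCACGTGA, the NF-Y box CCAAT and the GC box GGGCGG. Where capitals run on, copies lie side by side or overlap, as in the CCAATTGG of IDI1, which is a CCAAT on each strand. For genes with several annotated starts, the window with the most NF-Y boxes is given.
INSIG1: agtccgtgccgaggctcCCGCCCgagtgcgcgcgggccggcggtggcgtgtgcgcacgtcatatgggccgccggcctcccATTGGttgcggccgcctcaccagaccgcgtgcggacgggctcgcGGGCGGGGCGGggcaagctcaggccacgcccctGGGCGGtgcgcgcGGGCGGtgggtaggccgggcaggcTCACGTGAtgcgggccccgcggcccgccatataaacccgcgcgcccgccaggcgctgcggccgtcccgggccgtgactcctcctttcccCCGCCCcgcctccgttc
IDI1: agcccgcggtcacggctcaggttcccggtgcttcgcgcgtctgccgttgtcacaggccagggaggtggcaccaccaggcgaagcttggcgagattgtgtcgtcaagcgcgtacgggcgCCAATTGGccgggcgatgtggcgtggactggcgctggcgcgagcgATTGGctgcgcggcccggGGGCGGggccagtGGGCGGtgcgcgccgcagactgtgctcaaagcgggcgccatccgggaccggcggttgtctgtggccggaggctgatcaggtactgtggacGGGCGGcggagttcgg
MSMO1: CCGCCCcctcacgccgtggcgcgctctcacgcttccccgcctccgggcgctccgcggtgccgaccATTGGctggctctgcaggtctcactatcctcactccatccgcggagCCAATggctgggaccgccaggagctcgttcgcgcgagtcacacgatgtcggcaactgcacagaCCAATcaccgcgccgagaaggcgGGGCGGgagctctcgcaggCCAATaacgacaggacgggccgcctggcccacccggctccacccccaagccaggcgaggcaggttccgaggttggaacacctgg
MVD: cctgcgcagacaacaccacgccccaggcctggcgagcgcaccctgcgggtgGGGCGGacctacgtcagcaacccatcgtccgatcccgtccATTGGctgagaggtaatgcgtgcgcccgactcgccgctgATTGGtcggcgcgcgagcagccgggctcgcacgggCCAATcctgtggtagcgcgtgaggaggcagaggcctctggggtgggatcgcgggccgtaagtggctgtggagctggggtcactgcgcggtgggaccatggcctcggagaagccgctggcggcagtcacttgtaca
HMGCS1: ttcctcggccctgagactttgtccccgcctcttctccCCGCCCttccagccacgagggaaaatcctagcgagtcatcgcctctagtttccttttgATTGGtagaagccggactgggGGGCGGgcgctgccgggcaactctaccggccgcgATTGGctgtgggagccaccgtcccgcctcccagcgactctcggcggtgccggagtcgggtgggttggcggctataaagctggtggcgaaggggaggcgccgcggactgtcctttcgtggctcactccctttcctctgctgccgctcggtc
SREBF2: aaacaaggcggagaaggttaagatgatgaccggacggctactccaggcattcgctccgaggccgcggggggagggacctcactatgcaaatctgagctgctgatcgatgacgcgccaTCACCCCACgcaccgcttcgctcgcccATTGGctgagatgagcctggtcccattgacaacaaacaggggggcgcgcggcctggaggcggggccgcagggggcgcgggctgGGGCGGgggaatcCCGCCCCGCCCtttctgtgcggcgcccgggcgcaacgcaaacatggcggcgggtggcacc

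The INSIG1 window lies at chr7:155297628-155297927 (plus strand), the IDI1 window at chr10:1048837-1049136 (minus strand) and the MSMO1 window at chr4:165327419-165327718 (plus strand). Those of MVD, HMGCS1 and SREBF2 lie at chr16:88663042-88663341 (minus strand), chr5:43313363-43313662 (minus strand) and chr22:41832855-41833154 (plus strand). Each covers the sequence just before the start and the first transcribed bases. The SREBP E-box was found in 1 of the members' 32 windows, that of INSIG1, and in 0.98% of all 35116 windows of the table. The sterol regulatory element was found in 1 window, that of SREBF2, and in 1.13% of all windows. The NF-Y box stood in 23 of the 32 windows, against 34.6% of all windows, and the GC box in 29, against 44.95%. A match is a string of letters and not a measured binding site.

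After isoginkgetin, most sterol enzymes lay below DMSO in the 3 sets with epithelial markers, and all lay above it in the set without them. In p53-null replicates 1 and 2, 12 and 14 of the 18 enzymes were below DMSO, with median differences of -0.04 and -0.16. In p53-null replicate 1 the vehicle alone moved them further: DMSO minus untreated had a median of -0.08, with 13 enzymes lower. In HCT116 replicate 2 all 18 were below DMSO, with a median of -0.25 and a range from -1.16 to -0.03. In HCT116 replicate 1 all 18 were above DMSO, with a median of 0.14 and a range from 0.01 to 0.37. Of all genes, 46.4%, 48.6% and 45.5% were below DMSO in the first 3 of these sets, 52.9% were above it in HCT116 replicate 1, and the medians of all genes ran from 0.0014 to 0.013.

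Of the 28 members, 16 were below DMSO in each of the 3 sets, which 17.6% of all genes were, and 14 of these 16 were above DMSO in HCT116 replicate 1, a pattern that 5.07% of all genes had. The other two, INSIG1 and STARD4, were below DMSO in all 4 sets, as were 12.5% of all genes. No member was above DMSO in each of the 3 sets, against 21.0% of all genes. The members at or below the 5th percentile of all genes, where 5% of genes lie by construction, were 6 in p53-null replicate 1, 11 in p53-null replicate 2 and 8 in HCT116 replicate 2. DHCR7, INSIG1 and SQLE were among them in each of these sets. In HCT116 replicate 1 no member lay there, and 5 lay at or above the 95th percentile.

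**Figure D1:**
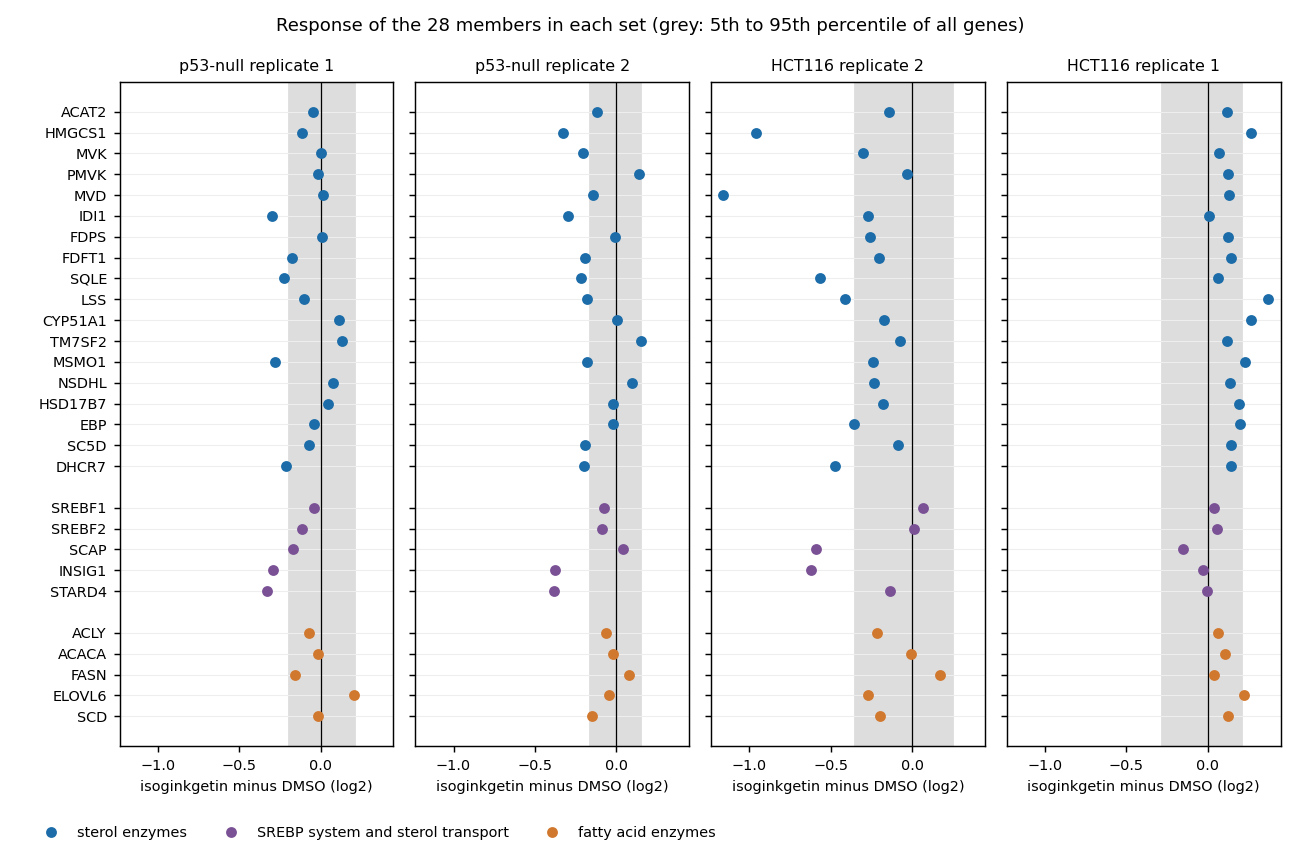
Isoginkgetin minus DMSO (log2, x axis) of each of the 28 members (rows, grouped by role) in the 4 sets, 1 point per member and set; the grey band runs from the 5th to the 95th percentile of all 18613 genes. Most sterol enzymes lie left of 0 in the first 3 panels, MVD and HMGCS1 farthest in HCT116 replicate 2, and all 18 lie right of 0 in HCT116 replicate 1.

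Over all 4 sets, no member passed the test. The test was limma on all 18613 genes with the set as a block and Benjamini-Hochberg adjustment, called at an adjusted p under 0.05. It called 1.93% of all genes lower and 1.10% higher. At an unadjusted p under 0.05, 5 of 28 members were reached, against 21.4% of all genes. The smallest adjusted p was 0.0879 for INSIG1 (difference -0.33, SE 0.091), followed by 0.0939 for IDI1 (difference -0.21, SE 0.061). In the p53-null line and in HCT116, tested with all arrays, again no member was called, against 0.183% and 3.05% of all genes called lower, and 4 members and 1 member reached an unadjusted p under 0.05, against 11.7% and 25.5% of all genes.

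Over the 3 sets, 4 members fell: IDI1, MSMO1, FDFT1 and INSIG1, while 1.40% of all genes were called lower and 1.06% higher, and 13 members reached an unadjusted p under 0.05, as did 17.5% of all genes. The differences were -0.29 for IDI1 (SE 0.032, adjusted p = 0.0101), -0.23 for MSMO1 (SE 0.037, adjusted p = 0.0295), -0.19 for FDFT1 (SE 0.032, adjusted p = 0.0361) and -0.43 for INSIG1 (SE 0.081, adjusted p = 0.0468), all from limma. Centring the arrays ended the call of INSIG1 (adjusted p = 0.0563), and an intensity trend in limma ended those of MSMO1 and FDFT1 (adjusted p = 0.0575 and 0.0722). Each was below DMSO in 3 of 3 sets. Without p53-null replicate 1 or without p53-null replicate 2 no member was called, with smallest limma adjusted p-values of 0.213 and 0.155. Of all 18613 genes, only 0 and 3 were then called lower. At an unadjusted p under 0.05, 13 and 10 members were still reached, as were 2074 and 2432 of all genes. Without HCT116 replicate 2, the p53-null sets alone gave 2 calls, IDI1 and STARD4. In the tests within the 3 sets, the p53-null line gave the same pair, against 1.16% of all genes called lower, with differences of -0.30 for IDI1 (SE 0.039, adjusted p = 0.0269) and -0.36 for STARD4 (SE 0.053, adjusted p = 0.0364).

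HCT116 replicate 2 by itself gave 11 members lower, against 9.00% of all genes called lower. This set has no second HCT116 set beside it, so the test takes its spread from the p53-null sets, and these p-values assume that it varies as they do. The 11 members were MVD, HMGCS1, SCAP, EBP, DHCR7, SQLE, INSIG1, LSS, FDPS, IDI1 and NSDHL, of which 9 are sterol enzymes and 2 belong to the SREBP system. Centring the arrays or leaving out dim probe sets lengthened this list, but more of all genes were then called lower as well. With centring ACLY, a fatty acid enzyme, FDFT1, MSMO1 and MVK joined the list, and without dim probe sets MSMO1 and MVK did. In HCT116 replicate 1 by itself, with the spread taken from the same p53-null sets, no member was called, 8 reached an unadjusted p under 0.05, as did 23.2% of all genes, and the smallest adjusted p was 0.0511. Of all genes, 4.21% were called lower there and 2.16% higher. With the median of each gene's probe sets in place of their mean, or without the set as a block, no member was called over the 3 sets, in the p53-null line or in HCT116 replicate 2. Few or no genes of all were called in these settings. With the median, 24 and 0 of 18613 genes were called lower over the 3 sets and in the p53-null line. Without the block, 0 were called in both. RNA came from whole cultures, in which fewer cells of a type and less RNA per cell cannot be told apart.

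Among the enzymes that lead to mevalonate and its activated isoprenoids, HMGCS1 and MVD changed most in HCT116 replicate 2. HMGCS1 joins acetyl-CoA to acetoacetyl-CoA to form HMG-CoA. Its level was 8.47 and 8.95 with isoginkgetin in p53-null replicates 1 and 2, against 8.59 and 9.28 in DMSO. It was 8.88 with isoginkgetin in HCT116 replicate 2, against 9.83 in DMSO and 9.85 untreated, so that 51.5% of the DMSO level remained (difference -0.96, SE 0.080, limma adjusted p = 0.00257). Its level in HCT116 replicate 1 was 11.37 with isoginkgetin, against 11.10 in DMSO and 11.24 untreated.

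MVD, the decarboxylase that makes isopentenyl diphosphate, had levels of 8.08 and 9.02 with isoginkgetin in p53-null replicates 1 and 2, against 8.06 and 9.16 in DMSO. It was 7.90 with isoginkgetin in HCT116 replicate 2, against 9.06 in DMSO and 9.11 untreated, so that 44.8% of the DMSO level remained (difference -1.16, SE 0.071, limma adjusted p = 0.00164). The level with isoginkgetin in that set lay below both p53-null levels, whereas its DMSO level lay between those of the p53-null sets. The level in HCT116 replicate 1 was 8.34 with isoginkgetin, against 8.21 in DMSO.

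IDI1 converts isopentenyl diphosphate to its isomer, from which longer isoprenoids are built. Its drop had nearly the same size in the 3 sets: 7.76 with isoginkgetin against 8.06 in DMSO in p53-null replicate 1, 7.90 against 8.20 in p53-null replicate 2, and 7.86 against 8.12 in HCT116 replicate 2. The mean over these sets was a difference of -0.29 ± 0.018 (SD, n = 3), or 81.9% of the DMSO level. IDI1 was 9.09 with isoginkgetin and 9.08 in DMSO in HCT116 replicate 1. With the median level of its probe sets on each array in place of their mean, the p53-null difference was 0.01 (limma adjusted p = 0.976). The median of its single probe-set differences was -0.21 in both p53-null sets and -0.17 in HCT116 replicate 2. In each of the 3 sets 7 to 9 of its 18 exon probe sets were not below DMSO.

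FDPS, which builds farnesyl diphosphate, was 8.78 with isoginkgetin in HCT116 replicate 2, against 9.04 in DMSO (difference -0.26, SE 0.049, limma adjusted p = 0.0227). In the p53-null sets its differences were 0.01 and -0.01, and in HCT116 replicate 1 it was 0.12. FDFT1, the squalene synthase that commits farnesyl diphosphate to sterols, was lower by a similar amount in the 3 sets, with levels of 7.61, 8.43 and 8.64 with isoginkgetin in p53-null replicates 1 and 2 and HCT116 replicate 2, against 7.78, 8.63 and 8.85 in DMSO. It was 9.76 with isoginkgetin and 9.62 in DMSO in HCT116 replicate 1. The remaining members of this stretch, ACAT2 (the cytosolic thiolase that makes acetoacetyl-CoA) and the kinases MVK and PMVK, were not called against DMSO on the deposited exon means, and their differences ran from -0.30 to 0.14 over the 4 sets.

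SQLE, the squalene epoxidase, was 7.96 and 8.76 with isoginkgetin in p53-null replicates 1 and 2, against 8.18 and 8.97 in DMSO. It was 10.49 with isoginkgetin in HCT116 replicate 2, against 11.06 in DMSO and 11.08 untreated, which is a fall of 0.57 (SE 0.092, limma adjusted p = 0.0144). The level in HCT116 replicate 1 was 11.81 with isoginkgetin and 11.75 in DMSO. LSS, which closes squalene epoxide to lanosterol, was 5.96 with isoginkgetin in HCT116 replicate 2, against 6.37 in DMSO (difference -0.41, SE 0.078, limma adjusted p = 0.0231). It was 5.89 and 6.54 in the p53-null sets with isoginkgetin, against 5.99 and 6.72 in DMSO, and 7.58 in HCT116 replicate 1, against 7.21. That difference of 0.37 was the highest of any member in HCT116 replicate 1.

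Of the 8 enzymes that turn lanosterol into cholesterol, MSMO1 fell over the 3 sets, and DHCR7, EBP and NSDHL fell in HCT116 replicate 2. MSMO1, the methylsterol monooxygenase, was 9.46, 10.13 and 10.26 with isoginkgetin in p53-null replicates 1 and 2 and HCT116 replicate 2, against 9.74, 10.32 and 10.50 in DMSO, and 10.48 in HCT116 replicate 1, against 10.25. DHCR7, the last step of the Kandutsch-Russell branch, was 10.96, 11.67 and 11.67 in the same 3 sets, against 11.17, 11.87 and 12.14 in DMSO. Its fall in HCT116 replicate 2 was 0.47 (SE 0.068, limma adjusted p = 0.0103), and its mean over the p53-null sets was -0.21 ± 0.0096 (SD, n = 2), which was not called (limma adjusted p = 0.0999). DHCR7 was 12.09 with isoginkgetin and 11.95 in DMSO in HCT116 replicate 1.

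EBP, the sterol isomerase, was 8.48 with isoginkgetin in HCT116 replicate 2, against 8.84 in DMSO (difference -0.36, SE 0.048, limma adjusted p = 0.00856), with differences of -0.04 and -0.02 in the p53-null sets. NSDHL, a decarboxylating sterol dehydrogenase, was 8.17, against 8.40 (difference -0.24, SE 0.051, limma adjusted p = 0.0341), with differences of 0.07 and 0.10 in the p53-null sets. EBP and NSDHL had differences of 0.20 and 0.14 in HCT116 replicate 1. CYP51A1, TM7SF2, HSD17B7 and SC5D were not called, and their differences over the 3 sets ran from -0.19 to 0.15. TM7SF2, a sterol reductase, was above DMSO in both p53-null sets, by 0.13 and 0.15.

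FDPS, HSD17B7 and CYP51A1 have closely related copies elsewhere in the genome, IDI1 lies beside its paralog IDI2, and ACAT2 overlaps the end of its neighbour TCP1, so that signal of these members may hold a part from another locus.

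Within the SREBP system, INSIG1 fell over the 3 sets, STARD4 fell in the p53-null line, SCAP and INSIG1 fell in HCT116 replicate 2, and SREBF1 and SREBF2 were not called. INSIG1 was 6.77, 7.88 and 8.15 with isoginkgetin in p53-null replicates 1 and 2 and HCT116 replicate 2, against 7.06, 8.26 and 8.77 in DMSO and 7.44, 8.29 and 8.84 untreated. In each of these sets the array with isoginkgetin was the lowest. In p53-null replicate 1 DMSO alone stood 0.38 below untreated, more than the 0.29 between isoginkgetin and DMSO. The fall in HCT116 replicate 2 was 0.62 (SE 0.117, limma adjusted p = 0.0225). INSIG1 was 9.21 with isoginkgetin in HCT116 replicate 1, against 9.24 in DMSO and 9.39 untreated.

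STARD4, a soluble sterol carrier and SREBP-2 target, was 6.65 and 7.61 with isoginkgetin in p53-null replicates 1 and 2, against 6.98 and 7.99 in DMSO. It was 7.73 in HCT116 replicate 2, against 7.86, and in HCT116 replicate 1 it was 9.60 in both. SCAP was 8.02 with isoginkgetin in HCT116 replicate 2, against 8.62 in DMSO and 8.56 untreated, with 66.4% of the DMSO level remaining (difference -0.59, SE 0.079, limma adjusted p = 0.00823). In p53-null replicates 1 and 2 it was 7.90 and 8.38, against 8.07 and 8.34, and in HCT116 replicate 1 it was 8.99, against 9.15. SCAP was thus the member with the lowest difference in HCT116 replicate 1, at -0.15.

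SREBF1 was 6.84, 6.77, 7.03 and 7.85 with isoginkgetin in p53-null replicates 1 and 2 and HCT116 replicates 2 and 1, against 6.88, 6.84, 6.96 and 7.81 in DMSO. SREBF2 was 6.87, 7.24, 7.95 and 8.37, against 6.98, 7.33, 7.94 and 8.31. Both genes were below DMSO in the p53-null sets and above it in the HCT116 sets, SREBF2 by only 0.01 in HCT116 replicate 2. The share of all genes with such a split was not counted. Neither gene was called in any comparison of isoginkgetin with DMSO. The array does not measure cleavage of the encoded proteins.

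**Figure D2:**
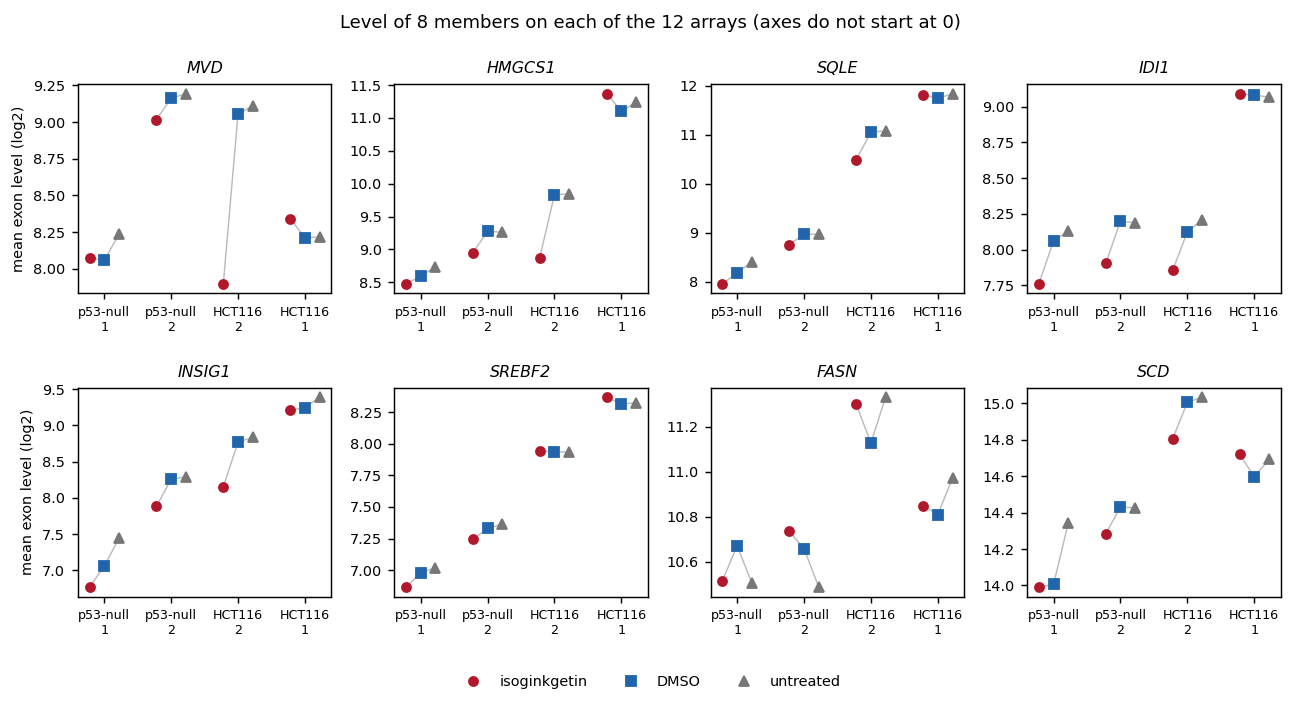
Mean exon level (log2, y axis) of 8 members on each of the 12 arrays; in each set isoginkgetin is a red circle, DMSO a blue square and untreated a grey triangle, joined by a line. MVD and HMGCS1 drop in HCT116 replicate 2, IDI1 drops by a similar amount in 3 sets, and SREBF2 and FASN show no drop shared by the sets.

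The 5 fatty acid enzymes were not called by the test of isoginkgetin against DMSO on the deposited values, over 4 or 3 sets or in either line, although ACLY was called lower in HCT116 replicate 2 once the arrays were centred. FASN, the fatty acid synthase, was 10.51, 10.73, 11.30 and 10.85 with isoginkgetin in p53-null replicates 1 and 2 and HCT116 replicates 2 and 1, against 10.67, 10.66, 11.13 and 10.81 in DMSO. It was thus above DMSO in 3 of 4 sets. SCD, the stearoyl-CoA desaturase, was 13.99, 14.28, 14.81 and 14.72, against 14.01, 14.43, 15.01 and 14.60. ACACA, the acetyl-CoA carboxylase that commits carbon to fatty acids, was 8.96, 9.23, 9.40 and 10.75, against 8.97, 9.24, 9.41 and 10.64, with a mean difference over the 3 sets of -0.01 ± 0.0052 (SD, n = 3). ACLY, which supplies cytosolic acetyl-CoA to both branches, had differences from -0.21 to 0.06, and the elongase ELOVL6 from -0.27 to 0.22.

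Set by set, the medians of the sterol and the fatty acid enzymes went the same way. They were -0.04 and -0.02 in p53-null replicate 1, -0.16 and -0.04 in p53-null replicate 2, -0.25 and -0.20 in HCT116 replicate 2, and 0.14 and 0.11 in HCT116 replicate 1. The sterol median minus the fatty acid median was -0.03, -0.12, -0.05 and 0.03 in these sets. The fatty acid median rests on 5 genes, and in HCT116 replicate 2 FASN stood at 0.17 while ELOVL6, ACLY and SCD stood at -0.27, -0.21 and -0.20. With junction in place of exon probe sets, the gap between the medians was -0.15, -0.09, -0.21 and -0.05, below 0 in all 4 sets. With untreated arrays as the control it was -0.19, -0.10, -0.05 and 0.10.

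The difference of the isoginkgetin response between the lines was tested directly. With all arrays limma called no gene (0.00%), and 2 members reached an unadjusted p under 0.05, against 13.1% of all genes. When HCT116 replicate 2 stood alone for its line, 5 members had a higher, that is less negative, response in the p53-null sets, against 3.94% of all genes called higher. The p53-null minus HCT116 replicate 2 difference was 1.09 for MVD (SE 0.087, limma adjusted p = 0.00696), 0.74 for HMGCS1 (SE 0.098, adjusted p = 0.0174), 0.33 for EBP (SE 0.059, adjusted p = 0.0371), 0.53 for SCAP (SE 0.097, adjusted p = 0.0376) and 0.32 for NSDHL (SE 0.063, adjusted p = 0.043). For MVD the responses behind it were 0.02 and -0.15 in the p53-null sets, against -1.16 in HCT116 replicate 2. After quantile scaling MVD and HMGCS1 were called and EBP, SCAP and NSDHL were not, against 2.50% of all genes called higher. None of the 5 was called on junction probe sets, with the median of probe sets, without the set as a block or by the methods' unpaired test. Few or no genes of all were called there. With 1 HCT116 set the line and the single culture cannot be told apart. IDI1, FDFT1 and MSMO1 had p53-null means of -0.30, -0.18 and -0.23, against -0.27, -0.21 and -0.24 in HCT116 replicate 2.

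Single exon probe sets showed how evenly a gene moved. In HCT116 replicate 2, isoginkgetin was below DMSO in 22 of 24 probe sets of HMGCS1, in 11 of 12 of MVD with none above, in 24 of 27 of SQLE and in 36 of 47 of SCAP. In p53-null replicate 1 the corresponding numbers were 15 of 24, 4 of 12, 20 of 27 and 31 of 47. For IDI1, 9, 11 and 10 of 18 probe sets were below DMSO in p53-null replicates 1 and 2 and HCT116 replicate 2, and 3, 3 and 5 were above. The remaining probe sets of IDI1 had equal values on both arrays. For HMGCS1 in HCT116 replicate 1, 21 of 24 were above DMSO. Between 15.8% and 23.7% of the members' 710 exon probe sets had exactly equal values on the isoginkgetin and the DMSO array of a set, which pulls a mean toward 0.

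**Figure D3:**
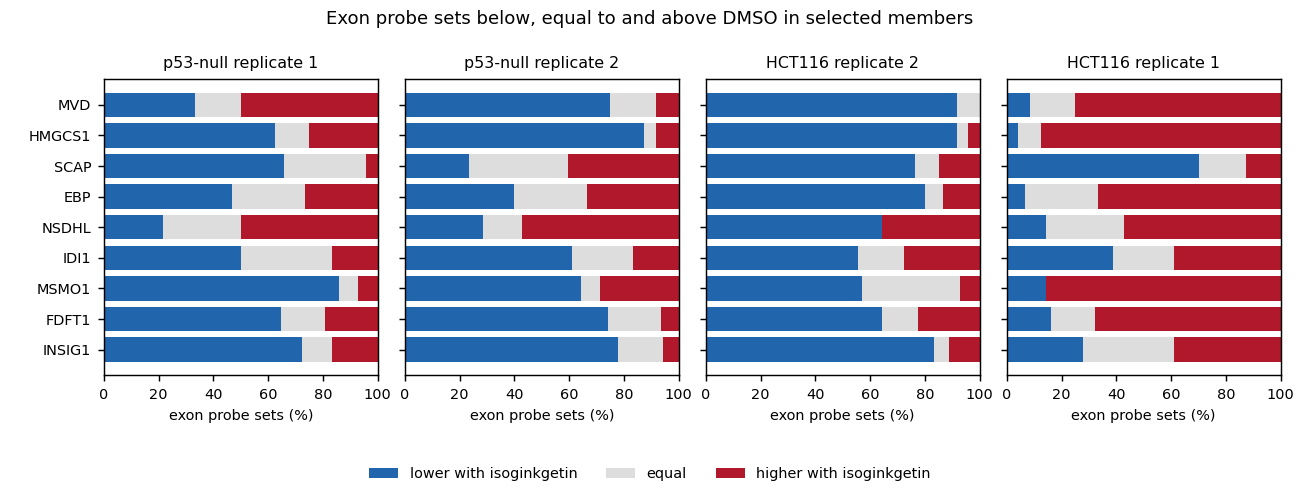
Share of exon probe sets (percent, x axis) that were lower with isoginkgetin (blue), equal (grey) or higher (red) than in DMSO, for 9 members in each of the 4 sets. In HCT116 replicate 2 no probe set of MVD lies above DMSO, and in HCT116 replicate 1 21 of 24 probe sets of HMGCS1 lie above it.

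Probe sets that span exon junctions are separate probes, and with them 17, 20 and 25 of the 28 members were below DMSO in p53-null replicates 1 and 2 and HCT116 replicate 2, and 7 in HCT116 replicate 1. Of all 16732 genes with such means, 42.8%, 48.2%, 50.8% and 50.1% were below DMSO. The junction differences of the sterol enzymes had medians of -0.07, -0.11, -0.45 and 0.08 in the 4 sets, so that in HCT116 replicate 2 the junction median lay below the exon median of -0.25. HMGCS1 had a junction difference of -1.28 there, beside -0.96 on exons, and DHCR7 -0.88, beside -0.47. On junctions, DHCR7, HMGCS1, MVD and SCAP were called lower in HCT116 replicate 2, against 1.77% of genes called lower. Over the 3 sets no member was called on junctions, where limma called 0.120% of genes lower. At an unadjusted p under 0.05, 10 members were reached on junctions, against 13.5% of genes. Between 1.96% and 2.75% of the members' 510 junction probe sets had equal values on both arrays.

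**Figure D4:**
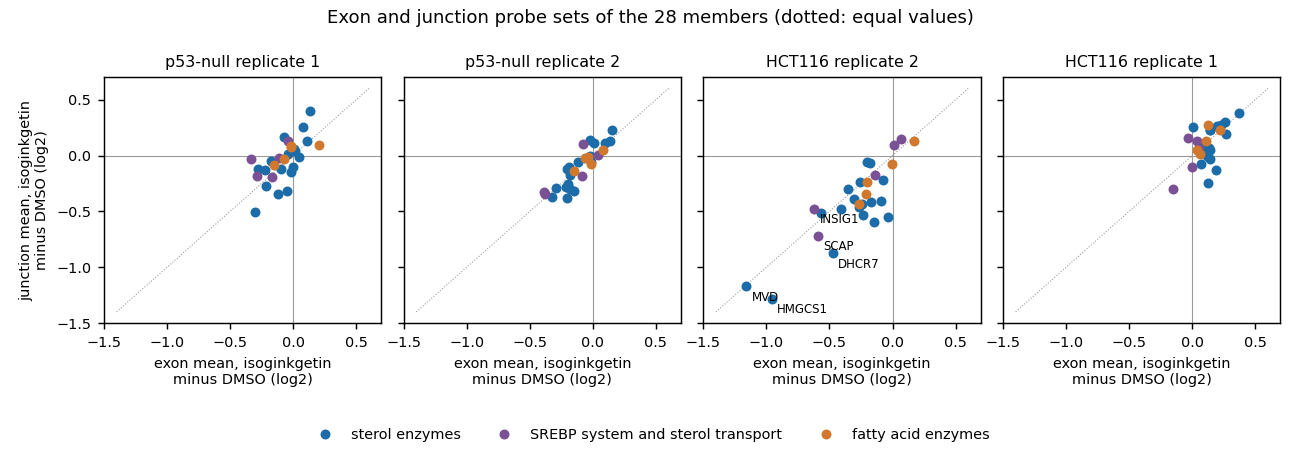
Junction difference (isoginkgetin minus DMSO, log2, y axis) against exon difference (x axis) for the 28 members, 1 point per member, in the 4 sets; the dotted line marks equal values. In HCT116 replicate 2 most points lie below that line, with HMGCS1 at -1.28 on junctions and -0.96 on exons.

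The vehicle by itself gave no call. DMSO minus untreated had 0 of 28 members called by limma over 4 sets and over 3 sets, with 0.00% of all genes called in both. At an unadjusted p under 0.05, 0 and 1 members were reached, against 2.29% and 3.02% of all genes. The members' median vehicle differences were -0.07 in p53-null replicate 1, 0.0045 in p53-null replicate 2, -0.02 in HCT116 replicate 2 and -0.04 in HCT116 replicate 1. DMSO was below untreated in 19, 12, 20 and 21 of the 28 members in these sets, and in 50.3%, 51.0%, 47.6% and 56.2% of all genes. In p53-null replicate 1, however, DMSO was below untreated by 0.38 for INSIG1, 0.34 for SCD and 0.23 for SQLE. For SCD, isoginkgetin then added a difference of only -0.02, and for SQLE -0.22. Against untreated in place of DMSO, 6 members fell over the 3 sets, IDI1, MSMO1, FDFT1 and INSIG1 with ACAT2 and STARD4, against 1.28% of all genes called lower. Over all 4 sets 2 members, INSIG1 and STARD4, were then called, against 2.84% of all genes lower.

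Without drug, no member was called between the lines, with all arrays or without HCT116 replicate 1, where 0.0269% and 0.543% of all genes were called lower in p53-null cells. At an unadjusted p under 0.05, 6 and 7 members were reached, against 5.23% and 13.4% of all genes. The widest gap was that of SQLE, whose DMSO level was 8.18 and 8.97 in p53-null replicates 1 and 2, against 11.06 in HCT116 replicate 2 and 11.75 in HCT116 replicate 1. The p53-null mean minus HCT116 replicate 2 was -2.48 (limma adjusted p = 0.14 over 3 sets). After quantile scaling of the arrays the difference was -2.22 and was called, with ACLY at -0.55 and SREBF2 at -0.61 (limma adjusted p = 0.0279, 0.0449 and 0.045), against 2.09% of all genes called lower. With HCT116 replicate 1 as the only HCT116 set, 10 members were called (9 lower and 1 higher in p53-null cells), against 49.3% of all genes called lower.

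All 5 fatty acid enzymes were lower in both p53-null sets than in HCT116 replicate 2, with a median difference of -0.72, whereas 9 of the 18 sterol enzymes were, with a median of -0.46. Among all genes, 31.6% had this order, with a median difference of 0.04. ELOVL6 was 8.95 and 9.77 in the p53-null sets, against 10.65 in HCT116 replicate 2, SCD was 14.01 and 14.43, against 15.01, and FASN was 10.67 and 10.66, against 11.13. After quantile scaling 4 fatty acid and 9 sterol enzymes kept this order, against 33.7% of all genes. For FASN the scaled difference was -0.20 and for ACACA -0.05. The p53-null sets also differed between themselves: INSIG1 had DMSO levels of 7.06 and 8.26, and MVD of 8.06 and 9.16.

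HCT116 replicate 1 had the highest DMSO level of the 4 sets in 19 of 28 members as deposited, but 76.7% of all genes did, and its genes lay a median of 0.65 above HCT116 replicate 2. After quantile scaling that median was -0.0038, and 11 members and 35.3% of all genes had their highest level there. STARD4 and TM7SF2 stayed higher, by 1.18 and 1.03, and SC5D had a difference of -2.11.

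**Figure D5:**
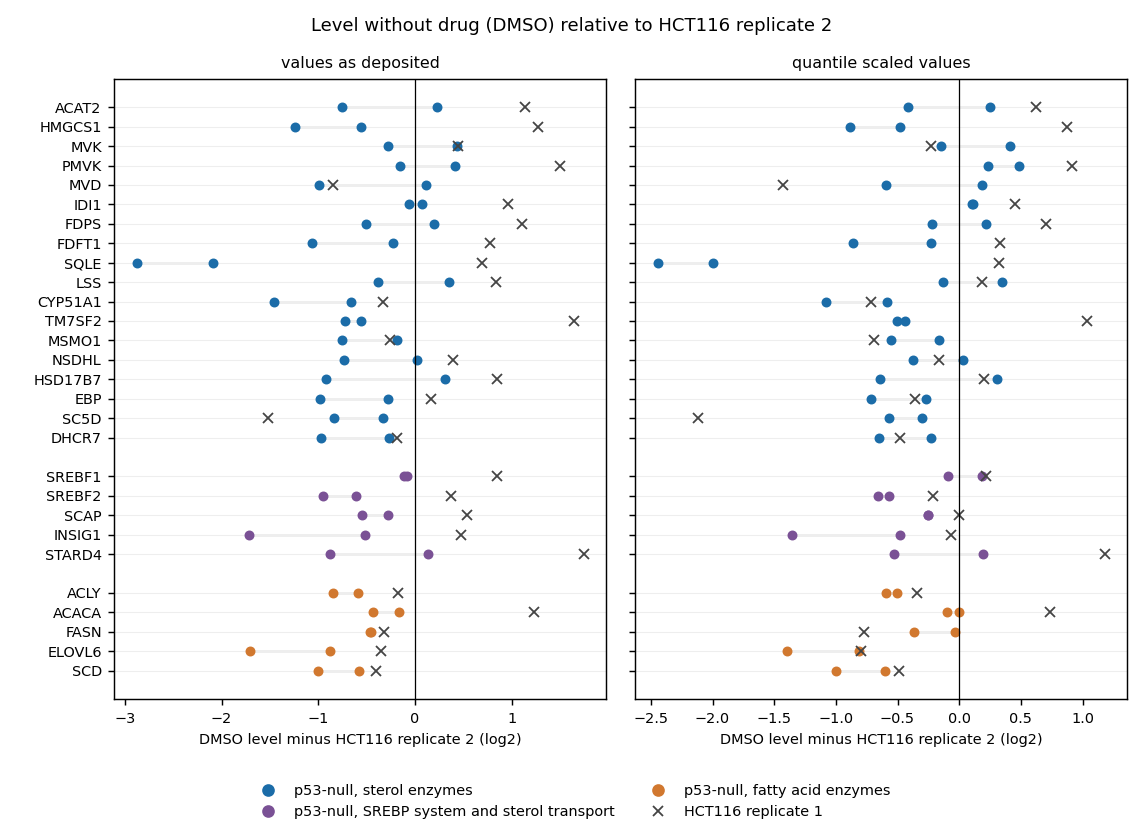
DMSO level minus that of HCT116 replicate 2 (log2, x axis) for the 28 members, with the 2 p53-null sets as joined circles and HCT116 replicate 1 as a cross; the left panel has the values as deposited and the right panel quantile scaled values. SQLE lies farthest left in p53-null cells, at -2.48 and -2.22 on average, and HCT116 replicate 1 shifts left after scaling.

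Related genes outside the 28 were taken from 4 further lists. Of 12 measured further sterol and isoprenoid enzymes, 8 further SREBP regulators, 11 genes of cholesterol uptake, egress and LXR, and 18 further fatty acid genes, 1 was called over 4 sets, where 1.93% of all genes were called lower and 1.10% higher: NR1H3, which encodes the sterol-sensing receptor LXR alpha, rose by a difference of 0.16 (SE 0.031, limma adjusted p = 0.0317). NR1H3 was above DMSO in 4 of 4 sets, but without HCT116 replicate 1 its adjusted p was 0.0872 at a difference of 0.14. Over the 3 sets 1 was called, against 1.40% of all genes lower and 1.06% higher. This was LPIN1, a phosphatidate phosphatase and SREBP target, which fell by 0.22 (SE 0.031, limma adjusted p = 0.0195). The smallest adjusted p-values of the other lists over 4 sets were those of PDSS2 and PGGT1B (0.0565 and 0.0633, differences -0.25 and -0.25) and of RNF139 and INSIG2 (0.0539 and 0.15, differences 0.21 and -0.12). NPC1 had 0.381 and a difference of -0.07, and among the fatty acid genes LPIN1 and ACSL4 had 0.0582 and 0.0766. In HCT116 replicate 2 alone, 4 of 12 isoprenoid enzymes (1 higher, 3 lower), 2 of 8 regulators (1 each way), none of 11 uptake genes and 3 of 18 fatty acid genes (1 higher, 2 lower) were called, against 9.00% of all genes lower and 4.84% higher.

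Each member's 12 arrays, taken as differences from the mean of their set, were set against the mean of the 18 sterol enzymes. Pearson's r was highest for HMGCS1 (0.974), DHCR7 (0.966) and LSS (0.964), although these are part of that mean, and among the members outside it for ACLY (0.854) and INSIG1 (0.826). It was -0.31 for FASN, -0.28 for SREBF1 and 0.00 for TM7SF2. Of all other genes, ZDHHC20 (0.988), TOX2 (0.976), EIF4B (0.974), SYT7 (0.972) and SCRN1 (0.970) followed the mean most closely. These genes depend on HCT116 replicate 1: over the other 9 arrays the 5 highest were ARPC1B (0.997), ZGPAT (0.996), TBC1D1 (0.995), SLC25A22 (0.994) and PM20D2 (0.994), none of them shared with the first 5. All values describe arrays that share sets, and the genes were picked as the highest of all.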

How the data were processed

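RNA of 12 cultures was measured on Affymetrix Human Transcriptome Array 2.0. The deposited probe-set and gene-level tables hold log2 values, which the authors made with Transcriptome Analysis Console 4.0 at default settings, per the design text; the genome build is not given in the sources used here. Rows with exactly 1 symbol were used, 2474 symbols were updated, and exon probe sets were averaged per gene (at least 3 per gene; 18613 genes from 381400 probe sets). The deposited log2 values were not rescaled. The gene-level table served only as an alternative, since a set's 3 arrays were identical there for 77.7% to 88.3% of genes.

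Isoginkgetin was compared with DMSO by limma 3.58.1 (R 4.3.3), with line and replicate number as a block, and p-values were adjusted by Benjamini-Hochberg over all genes. DMSO levels of the lines were compared without a block. That comparison takes the 3 arrays of a set as independent, although they deviate together, so its p-values may be too small. The number pairs samples within a line: deviations of arrays of 1 line and number correlated at 0.903 to 0.997 (12 pairs), and those of different lines at 0.0678 to 0.107 (18 pairs). The study used an unpaired analysis of variance, which was run as an alternative. In 3-set tests within a line the spread rests on few arrays. The script was tested on simulated data.

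Members and gene lists were chosen with earlier results of these data known. Values in every set are given for members called in any comparison of isoginkgetin with DMSO and for HMGCS1, SQLE, INSIG1, SREBF1, SREBF2, FASN, SCD and ACACA; of further lists, the counts and the 2 genes with the smallest adjusted p are given. Alternatives were quantile scaling, centring, the median of probe sets, leaving out dim probe sets (log2 under 5), junction probe sets, untreated arrays as control, an intensity trend and leaving out each set. Other tools were Python 3.11.15, pandas 2.3.3, numpy 2.4.6 and matplotlib 3.10.9.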

Additional observations from a re-analysis of the deposited data

Results flagged for a closer look

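For 5 members the response in the p53-null sets differed from that of HCT116 replicate 2, where the line and the single culture cannot be told apart. By the limma test of the difference itself, with HCT116 replicate 2 as the only HCT116 set, the p53-null minus HCT116 difference was 1.0943 for MVD (adjusted p = 0.00696), 0.7359 for HMGCS1 (adjusted p = 0.0174), 0.5271 for SCAP (adjusted p = 0.0376), 0.3261 for EBP (adjusted p = 0.0371) and 0.3221 for NSDHL (adjusted p = 0.043). The mean responses behind them were -0.06, -0.22, -0.06, -0.03 and 0.09 in the p53-null sets, against -1.16, -0.96, -0.59, -0.36 and -0.24 in HCT116 replicate 2. With all 4 sets none of these 5 passed, and 0 of all 18613 genes did. On 3 sets none of the 5 passed with junction probe sets, the median of probe sets, no set block or the methods' unpaired test. Few or no genes of all passed there. SREBF1 and SREBF2 had every p53-null set below DMSO and every HCT116 set above it. How many of all genes split this way was not counted. SREBF2 was only 0.01 above DMSO in HCT116 replicate 2. Their p53-null minus HCT116 differences were -0.1099 and -0.1345 over all 4 sets and did not pass the limma test (adjusted p = 0.433 and 0.327).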

How the results depend on the processing

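With all 4 sets, no member was called for isoginkgetin against DMSO under any scaling, probe-set choice or model tried, with or without the replicate block (0 members each). Without the block, 0 of all 18613 genes were called. The member count became 2 with untreated arrays in place of DMSO and 4 without HCT116 replicate 1, where 528 and 260 of 18613 genes were called lower. Over the alternatives that left out 1 set each, members called ran from 0 to 4 over all sets, 0 to 2 in the p53-null line, 0 to 11 in HCT116, 0 to 5 for the difference between lines and 0 to 10 for DMSO levels between lines. Over all sets, 1 to 260 of 18613 genes were called lower in the same fits. In each of these comparisons, the fits with the most member calls also had the most calls of all genes. Several fits with 0 members called few or no genes of all, so their 0 cannot set the members apart. The alternatives over 3 sets were chosen after seeing the data. There, no member was called for isoginkgetin in any comparison without the replicate block, by the methods' unpaired test or with the median of probe sets (0 each). Few or no genes of all were called in these settings either. With that median, the difference of median levels of IDI1 in p53-null cells was 0.0146 in place of a negative one. The median of its single probe-set differences was -0.21 in both p53-null sets. Junction probe sets gave 0 members in the p53-null line and over 3 sets, where 2 and 20 of 16732 genes were called lower. With untreated arrays the p53-null count was 4, where 263 of 18613 genes were called lower. With an intensity trend the 3-set count was 2, where 182 of 18613 genes were called lower. For the difference between the lines, these choices and quantile scaling lowered the calls of members and of all genes. Quantile scaling raised those for DMSO levels between the lines. In HCT116 replicate 2, centring and leaving out dim probe sets raised the calls of lower members and of all lower genes. Quantile scaling and the trend reduced both. Untreated arrays raised the member calls, while fewer of all genes were called lower. Over the 3 sets centring gave 3 members, without INSIG1, where 267 of 18613 genes were called lower. Leaving out 1 of the 3 sets gave 0 to 2 members, with 0 to 215 of 18613 genes called lower. The gene-level table, with most values equal within a set, put the sterol median in p53-null cells at 0, and the sterol minus fatty acid median in p53-null replicate 2 at 0. That gap in p53-null replicate 1 was 0.0441 with the median of probe sets, -0.1497 on junctions and -0.1939 against untreated. The gap in HCT116 replicate 2 was -0.1586 with the median of probe sets, -0.2067 on junctions and -0.1974 without dim probe sets. For HCT116 replicate 1 it was 0.1304 with the median, -0.0493 on junctions and 0.0997 against untreated. The causes were not tested, and signal over background was not available to set a limit per gene.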
